A study of Homo sapiens with 16 samples.

Results

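The BET bromodomain inhibitor I-BET762 was compared with no inhibitor in DU145 cells, a human prostate carcinoma line, with both lactate levels pooled. The 8 libraries with the inhibitor, of 16 in all, were set against the 8 without it, and lactate was the second factor of an additive model. There were 4 libraries in each of 4 groups: untreated control cells, cells given lactate, cells given I-BET762, and cells given lactate and I-BET762 together. Each library was single-end sequencing of polyadenylated RNA from one culture, described as an independent replicate. The labels give no dose, exposure time, genetic change or batch, and all groups share one cell line. For the combined treatment the cell line field counts up from DU146 to DU149 while the titles read DU145, and the titles were followed. Counts per library were between 10711859 and 17173584. Values below are CPM (a gene's counts scaled to a fixed library total) and are shares, so less RNA per cell and fewer cells expressing a gene cannot be told apart.

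BET proteins are chromatin readers whose paired bromodomains bind acetylated lysines on histone tails and help bring the elongation kinase P-TEFb to promoters and enhancers. I-BET762 occupies the acetyl-lysine pocket and releases them from chromatin. HEXIM1, which holds P-TEFb inactive in the 7SK RNA particle, is widely used as a marker of BET inhibition because its transcript rises. Genes encoding H2B and other histones, usually copied in S phase, are also often reported to rise, while inflammatory genes driven by NF-kappaB and, in many blood cancers, MYC are reported to fall.

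The marker gene HEXIM1 (ENSG00000186834, chr17:45148502-45152101, GRCh38) comes first, as a check of which libraries carry the inhibitor. HEXIM1 was at 75.7, 135, 70.0 and 77.4 CPM in controls 1 to 4 and at 149, 89.6, 113 and 114 CPM in I-BET762 libraries 1 to 4. The library labelled control 2 lay above 3 of the 4 inhibitor libraries, and the library labelled I-BET762 2 was the lowest of its group. With lactate HEXIM1 was at 69.7, 86.0, 81.1 and 72.1 CPM without the inhibitor and at 142, 157, 115 and 127 CPM with it, with no overlap. The same 2 libraries were checked on 73 genes chosen only from the lactate-treated libraries (absolute log2 fold change over 1 at 5 CPM or more on average, 4 higher and 69 lower with the inhibitor). The library labelled control 2 lay on the inhibitor side of the midpoint between the other control and the other I-BET762 libraries for 65 of these genes (89.0%). The other controls did so for 3 to 18 genes. The library labelled I-BET762 2 lay on the inhibitor side for 6 genes (8.2%), and the other I-BET762 libraries for 51 to 67. All labels were kept as given, and each result is also given from 14 libraries, without these 2. The 2 libraries were set apart on HEXIM1, so its own value in the 14 libraries is a description, and counts there rest on a choice made on a response gene.

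With all 16 libraries, 123 of 14690 genes (0.837%) changed with I-BET762 by edgeR's quasi-likelihood test at a Benjamini-Hochberg adjusted p under 0.05. Of these 92 rose (0.626% of those tested) and 31 fell (0.211%). These calls lay close to the threshold, since the lowest adjusted p was 0.0388, while 2709 genes had an unadjusted p under 0.05. Without the 2 libraries, 943 of 14897 genes (6.33%) changed, 449 higher (3.01%) and 494 lower (3.32%), with a lowest adjusted p of 3.57e-05. All 123 genes were among those 943 (100% of the shorter list, 13% of the longer), each with the same sign. The fits share 14 libraries, so this overlap is not independent evidence. With 16 libraries the median of all genes was -0.01 on the log2 scale, and with 14 it was 0. Counts of list members below are read against the shares of all genes, 0.837% with 16 libraries and 6.33% with 14.

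The 16-library count was unstable to single libraries. Leaving out any one of 11 libraries (controls 1, 3 and 4, lactate 2 and 4, I-BET762 1, 3 and 4, or the combined treatment 1, 2 and 4) left 0 genes under the threshold by edgeR, with 2178 to 3003 at an unadjusted p under 0.05. Leaving out one of the other 5 gave more genes: 705 without the library labelled control 2, 551 without lactate 1, 434 without lactate 3, 358 without the library labelled I-BET762 2 and 589 without combined treatment 3. On 14 libraries the count ran from 368 without combined treatment 2 to 1687 without lactate 1. It was 368 to 581 without any one of controls 1, 3 and 4, I-BET762 1, 3 and 4, or combined treatment 1, 2 and 4, and 760 to 1155 without any one of lactate 2, 3 and 4 or combined treatment 3.

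**Figure D1:**
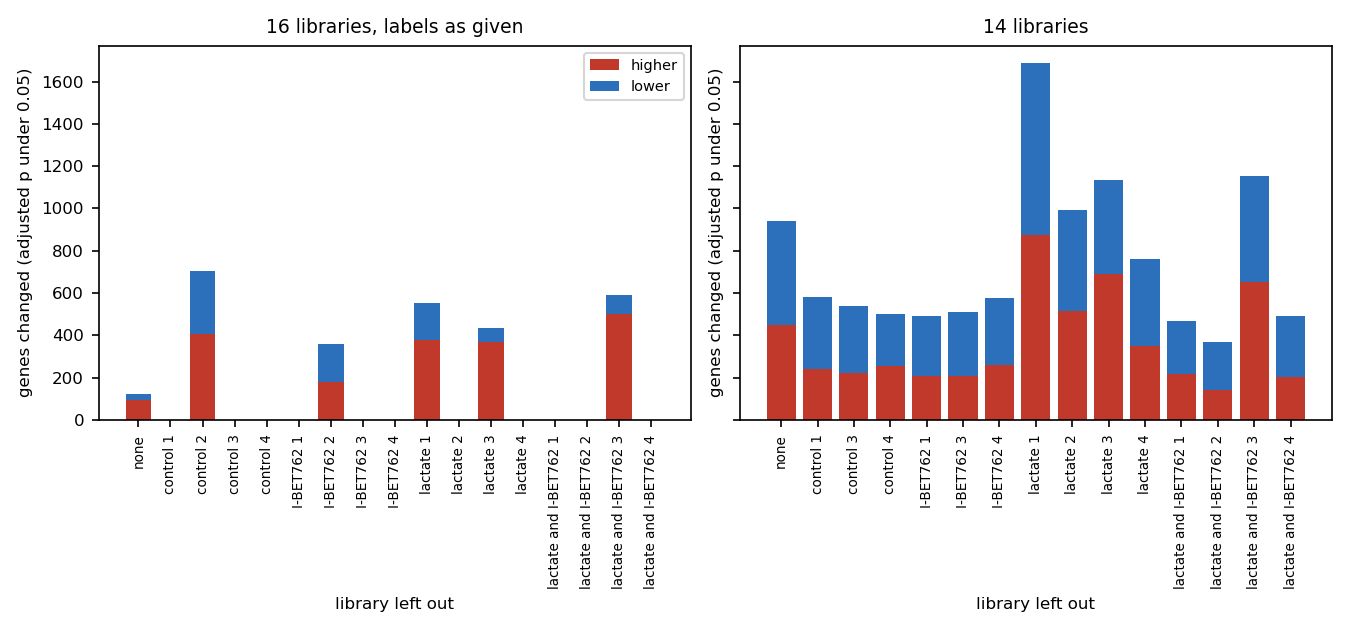
Number of genes changed with I-BET762 (y axis, adjusted p under 0.05, stacked by direction) after leaving out the library named on the x axis, from all 16 libraries on the left and from 14 on the right; "none" is the full fit. The left panel is at 0 for 11 libraries and reaches 705 without control 2, while the right panel stays between 368 and 1687.

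HEXIM1 itself was 1.51-fold higher with the inhibitor over all 16 libraries (log2 fold change 0.59 ± 0.14 SE), with an edgeR adjusted p of 0.0501 that just missed the threshold. Its difference was 0.38 without lactate and 0.81 with lactate on the log2 scale. In 14 libraries the difference without lactate was 0.75, as a description. The interaction of I-BET762 and lactate did not pass for HEXIM1 (edgeR adjusted p 0.7). In the 14 libraries HEXIM1 was 1.72-fold higher (0.78 ± 0.09 SE). Across 32 alternative settings its log2 difference stayed between 0.51 and 0.78, and HEXIM1 passed the threshold in 12 of them. Those settings include fits without the 2 libraries that were set apart on HEXIM1. With a GC content offset in 14 libraries, which is not among the 32, it was 0.85.

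Of 9 tested genes for histone H2B, a core component of the nucleosome, 3 rose with 16 libraries and 7 with 14, and 0 fell. Log2 fold changes below are inhibitor against no inhibitor, ± SE. H2BC5, a replication-dependent H2B gene of the chromosome 6 histone cluster, was at 15.1, 27.6, 19.3 and 17.2 CPM in the controls and at 36.0, 15.3, 39.7 and 37.8 CPM with I-BET762. It was at 13.5, 16.6, 18 and 15.7 CPM with lactate and at 30.7, 36.8, 29.6 and 32.1 CPM with lactate and I-BET762. The lactate-treated groups did not overlap, and without lactate the library labelled I-BET762 2 lay among the controls while control 2 was the highest control. H2BC5 rose 1.81-fold (log2 0.86 ± 0.17 SE, edgeR adjusted p 0.0467) with 16 libraries and 2.1-fold (1.07 ± 0.09 SE, adjusted p 3.57e-05) with 14.

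H2BC6, its neighbour in the same cluster, was at 4.13, 8.65, 4.66 and 3.97 CPM in the controls and at 9.20, 3.96, 9.80 and 9.32 CPM with I-BET762. With lactate it was at 3.35, 5.02, 4.42 and 3.42 CPM without the inhibitor and at 10.9, 11.6, 9.84 and 10.6 CPM with it. Control 2 was the highest control and I-BET762 2 lay below all 4 controls, and the lactate-treated groups were apart. H2BC6 rose by 0.99 ± 0.21 on the log2 scale (edgeR adjusted p 0.0467) and by 1.29 ± 0.11 in 14 libraries (adjusted p 3.57e-05). H2BC4 was at 8.20, 12.2, 9.92 and 7.87 CPM in the controls, at 15.5, 10.04, 20.6 and 18.7 CPM with I-BET762, at 10.6, 9.83, 8.83 and 7.07 CPM with lactate, and at 17.5, 17.9, 14.2 and 18 CPM with both. It rose 1.78-fold (log2 0.83 ± 0.14 SE, adjusted p 0.0388) and, in 14 libraries, 1.97-fold (0.98 ± 0.11 SE, adjusted p 0.00033).

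Of the replication-dependent histone list, 15 of 28 members passed the filter on low counts. H2BC6, which rose in both fits as given above, is not a member of this list and is not counted here. With 16 libraries 3 rose (H2BC4, H2BC5 and H2AC11), 0 fell, and the median difference was 0.51 on the log2 scale, against -0.01 for all genes. With 14 libraries 8 rose and the median was 0.70, and after an offset for GC content it was 0.76 with 8 again higher. The median was 0.53 with lactate and 0.49 without it. H2BC21, on chromosome 1, differed by 0.71 ± 0.18 (adjusted p 0.0542) and rose by 0.89 ± 0.10 in 14 libraries (adjusted p 0.000339), and H4C8, an H4 gene, differed by 0.58 ± 0.15 (adjusted p 0.0625) and rose by 0.74 ± 0.11 in 14 (adjusted p 0.00191). H1-2, a linker histone, and H4C3 did not pass in either fit, with differences of 0.19 and -0.10. Genes for one type of core histone, such as H2B, are nearly identical in coding sequence, so reads may be shared among them. Most transcripts of replication-dependent histone genes lack the poly(A) tail that the library selects, so the values cover the polyadenylated share. Of 10 tested genes for polyadenylated histone variants 1 rose, the linker histone gene H1-10 (0.77 ± 0.16, adjusted p 0.0467).

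The 160 bases before the start site are shown for HEXIM1 and for the H2B genes named above, because these genes moved together and the members differ in known promoter elements. Sequences come from RefSeq (GRCh38.p14), 5′ to 3′ on the strand of the gene. Capitals mark the octamer ATTTGCAT, a known element of H2B promoters, the CCAAT box (CCAAT) and the TATA box (TATAAA), searched on both strands. The windows are chr17:45148315-45148474 (plus strand) for HEXIM1, chr6:26123927-26124086 (minus) for H2BC4, chr6:26157961-26158120 (plus) for H2BC5, chr6:26183601-26183760 (plus) for H2BC6 and chr1:149886683-149886842 (minus) for H2BC21.
HEXIM1: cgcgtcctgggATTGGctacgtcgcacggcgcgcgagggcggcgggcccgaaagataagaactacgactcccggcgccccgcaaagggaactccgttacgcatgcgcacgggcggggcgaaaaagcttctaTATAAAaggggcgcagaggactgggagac
H2BC4: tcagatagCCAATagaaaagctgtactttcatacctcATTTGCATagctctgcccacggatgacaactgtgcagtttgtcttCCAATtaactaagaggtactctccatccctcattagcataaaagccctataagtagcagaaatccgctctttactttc
H2BC5: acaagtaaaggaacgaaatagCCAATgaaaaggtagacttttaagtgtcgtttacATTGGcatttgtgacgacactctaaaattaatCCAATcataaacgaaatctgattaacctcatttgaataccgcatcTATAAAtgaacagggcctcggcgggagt
H2BC6: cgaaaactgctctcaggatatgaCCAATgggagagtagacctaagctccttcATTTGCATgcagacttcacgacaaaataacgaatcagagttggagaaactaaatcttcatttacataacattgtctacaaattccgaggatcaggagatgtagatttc
H2BC21: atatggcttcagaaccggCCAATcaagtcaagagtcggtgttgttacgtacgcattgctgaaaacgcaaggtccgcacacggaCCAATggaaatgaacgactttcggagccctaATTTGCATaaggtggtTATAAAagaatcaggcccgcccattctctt

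The octamer stood in the windows of 7 of the 9 tested H2B genes, against 1.05% of 35116 windows of this length in the table. A CCAAT box stood in all 9 (24.5% of all windows) and a TATA box in 5 (7.04%). With 14 libraries 7 of these 9 genes rose, with 16 libraries 3 did. H2BC5, which rose in both, holds these letters of the octamer nowhere in its window, and H2BC8, which holds them, differed by 0.57 ± 0.28 (adjusted p 0.237, 14 libraries). A match is a description of the letters and no measure of binding.

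**Figure D2:**
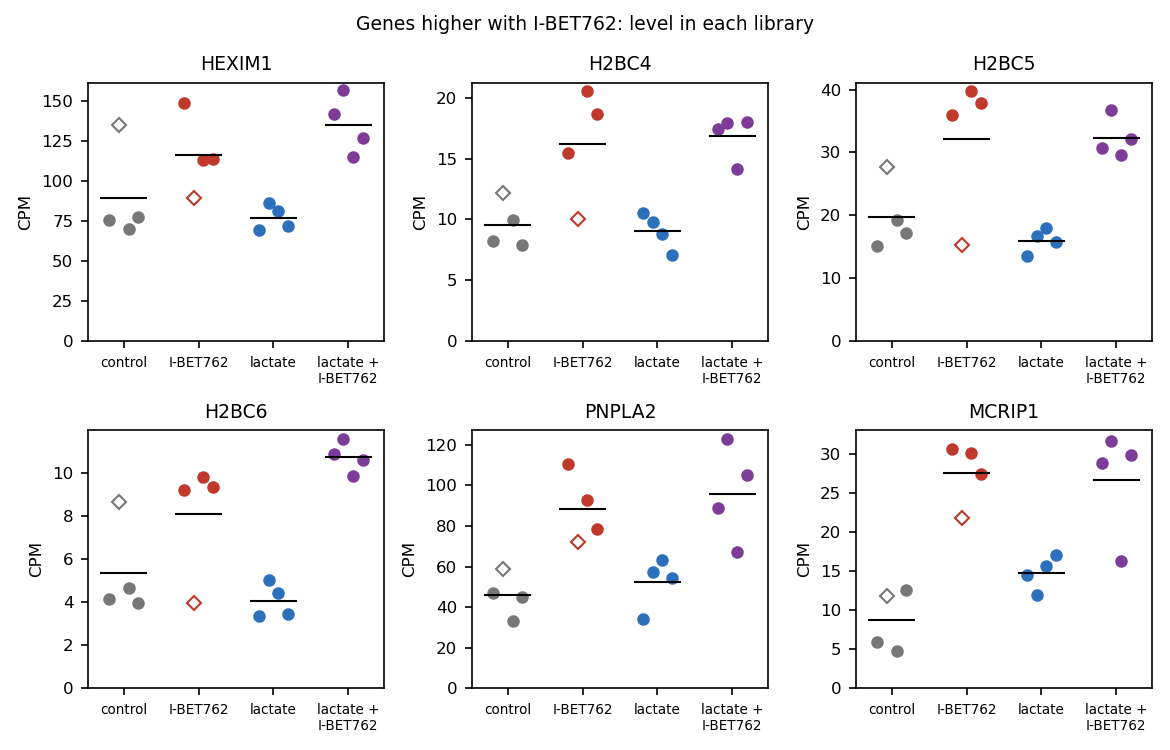
Level in CPM (y axis, linear, from 0) of 6 genes higher with I-BET762 in each library, by group (x axis); lines are group means over 4 libraries, and open diamonds are the libraries labelled control 2 and I-BET762 2. For HEXIM1 and the 3 H2B genes both diamonds lie toward the opposite group, and for MCRIP1 and PNPLA2 the groups without lactate do not overlap even with them.

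Among 15 tested genes that other studies of BET inhibitors reported to rise, a list chosen from the literature, 3 rose with 16 libraries and 8 with 14, 0 fell in either fit, and the medians were 0.39 and 0.43. The risers outside the histones were ZCCHC24, a zinc finger gene (0.38 ± 0.09, adjusted p 0.0490), and, in 14 libraries, CLU, a secreted chaperone gene (0.43 ± 0.09, adjusted p 0.0114). The count of 8 includes HEXIM1, whose call there follows from the choice of libraries. SERPINI1, a neuronal serpin gene used as a second marker, differed by 0.22 ± 0.11 (adjusted p 0.327) and by 0.32 ± 0.10 in 14 libraries (adjusted p 0.0672). SAT1, a polyamine acetyltransferase gene of the same list, had the opposite sign, -0.38 ± 0.17 (adjusted p 0.228).

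Of 23 tested genes for P-TEFb, the 7SK particle and elongation factors, 1 rose with 16 libraries, NELFB, which encodes a subunit of the pausing factor NELF (0.48 ± 0.11, adjusted p 0.0490). In 14 libraries it rose by 0.48 ± 0.12 (adjusted p 0.0319), and the list's other call there was HEXIM1, which the choice of libraries fixes. Among all tested genes 0.626% rose with 16 libraries and 3.01% with 14. CDK9 and CCNT1, the kinase and cyclin of P-TEFb, differed by 0.13 ± 0.07 (adjusted p 0.329) and 0.12 ± 0.12 (adjusted p 0.617). BRD3, a BET family gene, differed by 0.11 ± 0.10 (adjusted p 0.608).

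The 10 largest rises among the 123 genes, averaging 5 CPM or more and with one sign at both lactate levels, included H2BC6 and 9 genes of varied function. MCRIP1, which encodes a regulator of the corepressor CtBP, was at 5.97, 11.8, 4.79 and 12.6 CPM in the controls and at 30.7, 21.9, 30.1 and 27.5 CPM with I-BET762. It was at 14.5, 12, 15.7 and 17.1 CPM with lactate and at 28.9, 31.7, 16.3 and 29.9 CPM with both. The groups were apart without lactate and overlapped with it, through combined treatment 3. MCRIP1 rose 2.37-fold (log2 1.24 ± 0.21 SE, edgeR adjusted p 0.0388), by 1.65 without lactate and 0.85 with it.

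PNPLA2, which encodes adipose triglyceride lipase, the enzyme that starts triglyceride breakdown on lipid droplets, was at 46.9, 58.9, 33.2 and 45.2 CPM in the controls and at 111, 71.9, 93.0 and 78.4 CPM with I-BET762. It was at 34.2, 57.2, 63.0 and 54.3 CPM with lactate and at 89.0, 123, 67.1 and 105 CPM with both. The groups did not overlap at either lactate level with any library included. PNPLA2 rose 1.88-fold (0.91 ± 0.15, adjusted p 0.0388), by 0.94 without and 0.88 with lactate. PLIN2, which encodes a coat protein of lipid droplets, differed by -0.51 ± 0.12 (adjusted p 0.0513) and fell by 0.65 ± 0.09 in 14 libraries (adjusted p 0.00153). They were the members called in either fit among 23 tested genes of a list of fatty acid and triglyceride synthesis, which also holds such breakdown and droplet genes. FASN, a synthesis gene of the list, differed by 0.81 ± 0.27 (adjusted p 0.112), and by 0.90 ± 0.30 in 14 libraries (adjusted p 0.0789).

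The others were BBLN (1.18 ± 0.21), MIB2, an E3 ubiquitin ligase gene (1.15 ± 0.21), MMP17, a membrane-anchored metalloprotease gene (1.14 ± 0.20), NUBP2, for iron-sulfur cluster assembly (0.95 ± 0.21), IDUA, for a lysosomal iduronidase (0.95 ± 0.19), MAP1S, for a microtubule-associated protein (0.93 ± 0.21), and ALDOA, for a glycolytic aldolase (1.24 ± 0.25). ALDOA is uncertain, because its mean was 14.1 CPM and the annotation places AC093512.2 on the same strand over it, so that reads could be divided between the identifiers. BBLN was at 3.94 to 10.3 CPM in the controls, 18.5 to 33.2 with I-BET762, 15.2 to 21.8 with lactate and 19.0 to 43.7 with both. Of these 10 genes 9 were higher in every I-BET762 library than in every control, and 2 (H2BC6 and PNPLA2) were higher in every library of the combined treatment than in every lactate library. The genes were picked for large called differences in these same libraries, so such separation partly follows from the choice. The share of separated genes over all tested genes was not counted.

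These risers were rich in G and C. Their exons had a median of 63.2% GC, 8 of the 10 at 60 or more, and the 92 genes that rose had a median of 62.8%, against 48.1% over all tested genes and 44.1% for the 31 that fell. The difference with I-BET762 followed GC content across genes, with Spearman's rho 0.36 in 16 libraries and 0.28 in 14 (genes are not independent replicates). Fitted apart, rho was 0.53 without lactate, 0.44 without lactate and the 2 libraries, and 0.09 with lactate. Library by library, the correlation of a gene's level, relative to its mean over libraries, with GC content was -0.55 to -0.30 in the controls, -0.18 to 0.17 with I-BET762, -0.02 to 0.32 with lactate and 0.06 to 0.43 with both. With a GC offset 0 of the genes passed edgeR's threshold in 16 libraries (2401 at an unadjusted p under 0.05), and 966 did in 14. MCRIP1, BBLN and PNPLA2 then differed by 1.05, 1.02 and 0.61 in 16 libraries (adjusted p 0.052 each) and rose by 1.12, 1.04 and 0.73 in 14. Several other risers were over 1.5 times smaller with the offset in 16 libraries, with MMP17 at 0.65 and MIB2 at 0.67 (adjusted p 0.052 each) and IDUA at 0.45 (adjusted p 0.189). MAP1S differed by 0.46 in both fits, with adjusted p 0.145 and 0.106. The part of GC content in the rises was not tested further.

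The genes that fell included chemokine and other secreted protein genes. CXCL1, a neutrophil-attracting chemokine gene, was at 17.0, 12.8, 14.7 and 17.3 CPM in the controls and at 9.89, 14.2, 10.04 and 11.1 CPM with I-BET762. It was at 51.5, 21.9, 23.6 and 32.8 CPM with lactate and at 15.3, 11.6, 17.1 and 17.6 CPM with both. With lactate the groups did not overlap, and without it they overlapped only in that control 2 lay below I-BET762 2. CXCL1 fell by 0.77 ± 0.18 on the log2 scale (edgeR adjusted p 0.0490), and by 0.89 ± 0.18 in 14 libraries (adjusted p 0.00962).

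TNFAIP3, which encodes A20, an NF-kappaB target and feedback inhibitor, was at 71.5, 43.8, 92.9 and 88.4 CPM in the controls and at 28.3, 56.5, 42.1 and 36.7 CPM with I-BET762. With lactate it was at 38.9, 85.6, 91.5 and 68.0 CPM without the inhibitor and at 32.5, 34.0, 44.6 and 46.3 CPM with it. Lactate 1 lay inside the inhibitor range, and the other 3 lactate libraries lay above it. TNFAIP3 fell to 0.553 of its level (log2 -0.86 ± 0.18 SE, adjusted p 0.0467) and, in 14 libraries, to 0.494 (-1.02 ± 0.17 SE, adjusted p 0.00402).

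In the list of 17 tested cytokine, chemokine and NF-kappaB genes, 2 fell with 16 libraries (CXCL1 and TNFAIP3), 0 rose, and the median was -0.37. With 14 libraries 5 fell and 2 rose, with a median of -0.51, where 3.32% of all genes fell and 3.01% rose. The added falls were CXCL8, for interleukin-8 (-0.84 ± 0.22, adjusted p 0.0334), IL6 (-0.78 ± 0.22, adjusted p 0.0494) and IL32 (-0.53 ± 0.13, adjusted p 0.0306). The rises were IL11, for a cytokine of the IL-6 family (0.89 ± 0.23, adjusted p 0.0311), and ICAM1, for an adhesion receptor (0.51 ± 0.12, adjusted p 0.0244). NFKBIA, for the NF-kappaB inhibitor, differed by -0.22 ± 0.27 (adjusted p 0.692 with 16 libraries). The list's median was -0.58 with lactate and -0.05 without it, or -0.20 without it in 14 libraries. That difference between the lactate levels was not tested for the list.

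IL6 was at 11.6, 6.45, 14.7 and 12.6 CPM in the controls, at 4.36, 9.09, 8.73 and 9.70 CPM with I-BET762, at 32.4, 17.0, 25.1 and 34.0 CPM with lactate, and at 9.21, 10.7, 21.3 and 21.2 CPM with both. The groups overlapped at both lactate levels with all libraries included. CXCL8 was at 252, 141, 157 and 150 CPM in the controls and at 99.2, 222, 117 and 120 CPM with I-BET762, and at 517, 262, 151 and 184 CPM with lactate and 141, 153, 148 and 148 CPM with both. Lactate 1 and 2 stood high and lactate 3 lay inside the inhibitor range.

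Of 20 tested interferon-response genes, 1 fell with 16 libraries, MX2 (-1.03 ± 0.20, adjusted p 0.0467), and 4 fell with 14, while 0 rose. The shares of all genes that fell were 0.211% with 16 libraries and 3.32% with 14. MX2 encodes an antiviral GTPase and was at 1.06 to 2.20 CPM in the controls, 0.415 to 1.32 with I-BET762, 2.47 to 3.40 with lactate and 1.04 to 1.86 with both. The other 3 were MX1 (-0.61 ± 0.12, adjusted p 0.00858) and the oligoadenylate synthetase genes OAS1 (-1.02 ± 0.25, adjusted p 0.0262) and OAS2 (-1.44 ± 0.28, adjusted p 0.00895), of which OAS1, OAS2 and MX2 are low in these cells. The list medians were -0.33 and -0.43. IRF1, for a transcription factor of the response, differed by 0.02 ± 0.09 (adjusted p 0.939) with 16 libraries.

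**Figure D3:**
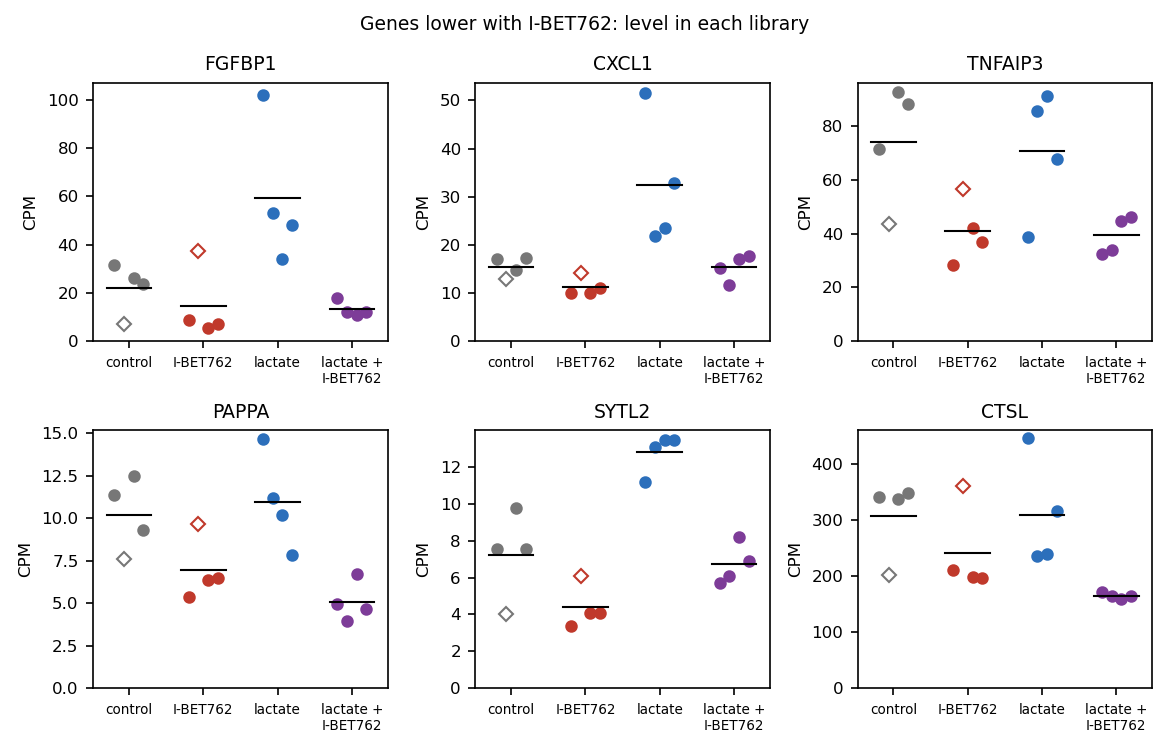
Level in CPM (y axis, linear, from 0) of 6 genes lower with I-BET762 in each library, by group (x axis), drawn as in the plot of rising genes. For FGFBP1, CXCL1, PAPPA, SYTL2 and CTSL the lactate-treated groups do not overlap, and for all 6 genes the open diamonds bring the groups without lactate into overlap. FGFBP1 was chosen as called only without the libraries drawn as diamonds, so its overlap partly follows from that choice.

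PAPPA, which encodes a secreted protease that frees insulin-like growth factors from their binding proteins, was at 11.4, 7.59, 12.5 and 9.29 CPM in the controls, at 5.39, 9.68, 6.36 and 6.46 CPM with I-BET762, at 14.6, 11.2, 10.2 and 7.82 CPM with lactate, and at 4.95, 3.94, 6.74 and 4.64 CPM with both. It fell by 0.82 ± 0.17 (adjusted p 0.0467), and by 1.00 ± 0.15 in 14 libraries (adjusted p 0.00206). SYTL2, for an adaptor of Rab27 in vesicle transport, was at 7.56, 4.02, 9.79 and 7.52 CPM in the controls, at 3.39, 6.08, 4.10 and 4.10 CPM with I-BET762, at 11.2, 13.1, 13.5 and 13.5 CPM with lactate, and at 5.71, 6.09, 8.19 and 6.90 CPM with both. It fell by 0.83 ± 0.16 (adjusted p 0.0427), and by 1.00 ± 0.11 in 14 libraries (adjusted p 0.00033). For both genes the lactate-treated groups were apart.

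The remaining falls were CLMP, for a junctional adhesion molecule (-0.80 ± 0.14), SYCP2, for a protein of the meiotic synaptonemal complex (-0.73 ± 0.17), DAW1, for a dynein assembly factor (-0.73 ± 0.15), LRRC34 (-0.70 ± 0.12), TFPI2, for a secreted protease inhibitor (-0.63 ± 0.14), and SGK1, for a serum- and glucocorticoid-regulated kinase (-0.59 ± 0.13). Of the 10 largest falls 9 were lower in every library of the combined treatment than in every lactate library. Without lactate 1 of the 10 (LRRC34) was lower in every I-BET762 library than in every control, and all 10 were once the 2 libraries were left out. Such separation partly follows from the choice of genes in these same libraries, and from leaving out libraries set apart on a response gene. Over all tested genes it was not counted. The exons of these 10 genes had a median of 43.6% GC.

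FGFBP1, which encodes a secreted carrier that releases fibroblast growth factors from the matrix, had the largest fall among genes called in 14 libraries but not in 16, at a mean of at least 5 CPM. It was at 31.3, 7.13, 26.2 and 23.8 CPM in the controls and at 8.92, 37.5, 5.52 and 6.96 CPM with I-BET762. With lactate it was at 102, 53.0, 34.2 and 48.2 CPM without the inhibitor and at 17.7, 12.2, 10.7 and 12.2 CPM with it. The lactate-treated groups were far apart, while the libraries labelled control 2 and I-BET762 2 each lay with the opposite group. FGFBP1 was chosen as called only without these 2 libraries, so their place partly follows from that choice. FGFBP1 differed by -1.39 ± 0.42 with 16 libraries (adjusted p 0.0848) and fell by 2.06 ± 0.21 with 14 (adjusted p 0.000237), to 0.239 of its level.

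CEMIP, for a hyaluronan-degrading protein, fell by 1.84 ± 0.32 in 14 libraries (adjusted p 0.00528, and 0.0718 with 16), from 103, 187 and 150 CPM in controls 1, 3 and 4 to 16.0, 53.3 and 45.6 CPM in I-BET762 1, 3 and 4. Under lactate its groups overlapped, at 30.4, 127, 124 and 72.6 CPM against 16.3, 17.6, 38.2 and 31.6 CPM, because lactate 1 was low. PLAAT4, a phospholipase gene (-1.30 ± 0.21), ADGRG1, an adhesion receptor gene (-1.30 ± 0.16), and XDH, for xanthine dehydrogenase (-1.24 ± 0.17), completed the 5 largest such falls. The 5 largest such rises were LRCH4 (1.14 ± 0.29), BAIAP3 (1.11 ± 0.24), ZNF628 (1.02 ± 0.29), CEP131, for a centriolar protein (0.99 ± 0.24), and CHTF18, for a clamp loader subunit (0.95 ± 0.25), with a median of 65.1% GC and groups that overlapped under lactate for all 5. Some named genes share bases with a gene on the other strand that is also counted, and whether counting used strand is not given in the sources used here, so their values are uncertain. Among them were BAIAP3 (mean of 76 counts) with TSR3 (422.1), CHTF18 (118.9) with RPUSD1 (347), CEMIP (1058) with MESD (1421) and NUBP2 (439.8) with SPSB3 (224.1). So were JUNB (382.6) with HOOK2 (335.6), BRD3 (1070.0) with BRD3OS (377.9), MIB2 (153.8) with AL691432.2 (27.6) and IL6 (220.8) with STEAP1B (36.8). Further pairs were LRCH4 (90.2) with FBXO24 (12.9), LRRC34 (104.6) with AC078795.2 (11.8) and TNFAIP3 (830.8) with AL357060.1 (47.4). TGFB1 (1369.7) with HNRNPUL1 (5994.6) and ACADVL (7834.6) with DLG4 (710.9), both named below, were others. SIRT7 (444.9), also named below, shares its strand and some bases with MAFG (1992.8), so its value is uncertain too.

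MYC, the proliferation factor whose fall is often taken as a sign of BET inhibition in blood cancers, was at 73.4 to 93.2 CPM in the controls, 83.1 to 97.5 with I-BET762, 68.6 to 87.3 with lactate and 75.2 to 92.9 with both. These ranges overlapped, and the difference was 0.11 ± 0.08 on the log2 scale (adjusted p 0.448), and 0.11 ± 0.08 in 14 libraries (adjusted p 0.438). Of 28 tested genes for MYC and ribosome biogenesis 0 passed edgeR's threshold in either fit, with medians of -0.05 and 0. FOSL1, for an AP-1 factor reported to fall in lung cancer lines, differed by -0.08 ± 0.14 (adjusted p 0.806). Of 10 tested genes reported to fall, 0 changed with 16 libraries and 2 fell with 14 (CXCL8 and IL6).

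Counts of cell division genes are read against all genes, of which 0.837% changed with 16 libraries and 6.33% with 14. Of 28 tested mitosis genes 0 changed with 16 libraries and 2 fell with 14, CCNB1, for cyclin B1 (-0.25 ± 0.07, adjusted p 0.0418), and AURKA, for a spindle kinase (-0.33 ± 0.09, adjusted p 0.0422). Of 29 DNA replication genes 1 rose with 14, POLD1, for the catalytic subunit of DNA polymerase delta (0.67 ± 0.19, adjusted p 0.0442). Of 16 genes for G1 cyclins and CDK inhibitors 1 rose with 14, CDKN2D (0.55 ± 0.15, adjusted p 0.0372). CDKN1A, for the inhibitor p21, differed by 0.13 ± 0.08 (adjusted p 0.41). Of 21 homologous recombination genes 0 changed in either fit.

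Of 18 tested immediate early genes, 2 rose with 16 libraries, the AP-1 gene JUNB (0.81 ± 0.18, adjusted p 0.048) and IER2 (0.39 ± 0.09, adjusted p 0.049), and JUN joined them in 14 (0.36 ± 0.09, adjusted p 0.0371). Counts in this and the next lists stand beside 0.837% of all genes changed with 16 libraries and 6.33% with 14. Of 21 tested antioxidant genes 2 rose in both fits, among them OSGIN1 (0.84 ± 0.18, adjusted p 0.0467, and 0.83 ± 0.19, adjusted p 0.0214, in 14 libraries). Of 31 lysosome and autophagy genes 1 rose with 16, ULK1, for the kinase that starts autophagy (0.67 ± 0.14, adjusted p 0.0467). With 14 libraries ATG2A also rose (0.72 ± 0.20, adjusted p 0.0477) and CTSL, for the lysosomal protease cathepsin L, fell (-0.84 ± 0.12, adjusted p 0.00146). CTSL was at 202 CPM in the library labelled control 2 against 336 to 348 in the other controls, and at 359 CPM in the library labelled I-BET762 2 against 197 to 211 in the other I-BET762 libraries.

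Of 24 glycolysis and lactate transport genes 1 rose with 16 libraries, the uncertain ALDOA, and PFKL, for liver phosphofructokinase, rose with 14 (0.72 ± 0.17, adjusted p 0.0248). Of 20 hypoxia-response genes SLC2A1, for the glucose transporter GLUT1, rose (0.51 ± 0.10, adjusted p 0.00796) and NDRG1 fell (-0.42 ± 0.09, adjusted p 0.013) with 14. Of 26 cholesterol genes TM7SF2 (0.52 ± 0.12, adjusted p 0.0219) and SCAP, for the escort of the SREBP factors (0.37 ± 0.09, adjusted p 0.0219), rose with 14. Of 22 fatty acid oxidation genes ACAA1 rose with 14 (0.37 ± 0.09, adjusted p 0.0226). Over all genes 6.33% changed in 14 libraries.

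Single falls in 14 libraries stood in several other lists: HDAC9 among 23 genes of histone acetylation (-0.90 ± 0.15, adjusted p 0.00365), XBP1 among 19 of the unfolded protein response (-0.44 ± 0.10, adjusted p 0.0226) and TNC, for the matrix protein tenascin C, among 21 of the epithelial-mesenchymal transition (-0.86 ± 0.20, adjusted p 0.0205). The tight junction genes CLDN1 (-0.33 ± 0.09) and PARD6B (-0.44 ± 0.12) fell among 18, and the ERK feedback genes DUSP4 (-0.41 ± 0.11) and PHLDA1 (-0.31 ± 0.08) among 15. None of these passed with 16 libraries, and 3.32% of all genes fell in 14. In either fit 0 genes passed among 15 of the BCL2 family, 33 cytosolic ribosomal proteins, 33 nuclear-encoded respiratory chain subunits and 13 mitochondrially encoded transcripts, although the medians of the last 3 lists were -0.16, -0.12 and 0.31 with 16 libraries. With lactate these medians were -0.35, -0.40 and 0.60, and without it 0.09, 0.10 and -0.01. Levels in lactate 1 and 4 followed exon length across genes (Spearman's rho -0.40 and -0.42, against 0.24 and 0.10 in lactate 2 and 3). Whether this moved the medians with lactate was not tested. With a GC offset in 14 libraries several genes named here no longer passed, at adjusted p from 0.0523 for JUN to 0.113 for ZNF628. They were also NELFB, H1-10, IER2, POLD1, CDKN2D, CCNB1, AURKA, SCAP, CLDN1, PARD6B, ATG2A, PHLDA1, IL6 and MAP1S, and each kept its direction. Some differences were over 1.5 times smaller with the offset, such as those of H1-10 (0.74 to 0.34), NELFB (0.48 to 0.23), IER2 (0.41 to 0.23), SCAP (0.37 to 0.18) and POLD1 (0.67 to 0.38). Among those that still passed, JUNB was at 0.51, ULK1 at 0.35, PFKL at 0.47 and TM7SF2 at 0.27. TM7SF2 shares its strand and some bases with VPS51, so its value is uncertain.

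**Figure D4:**
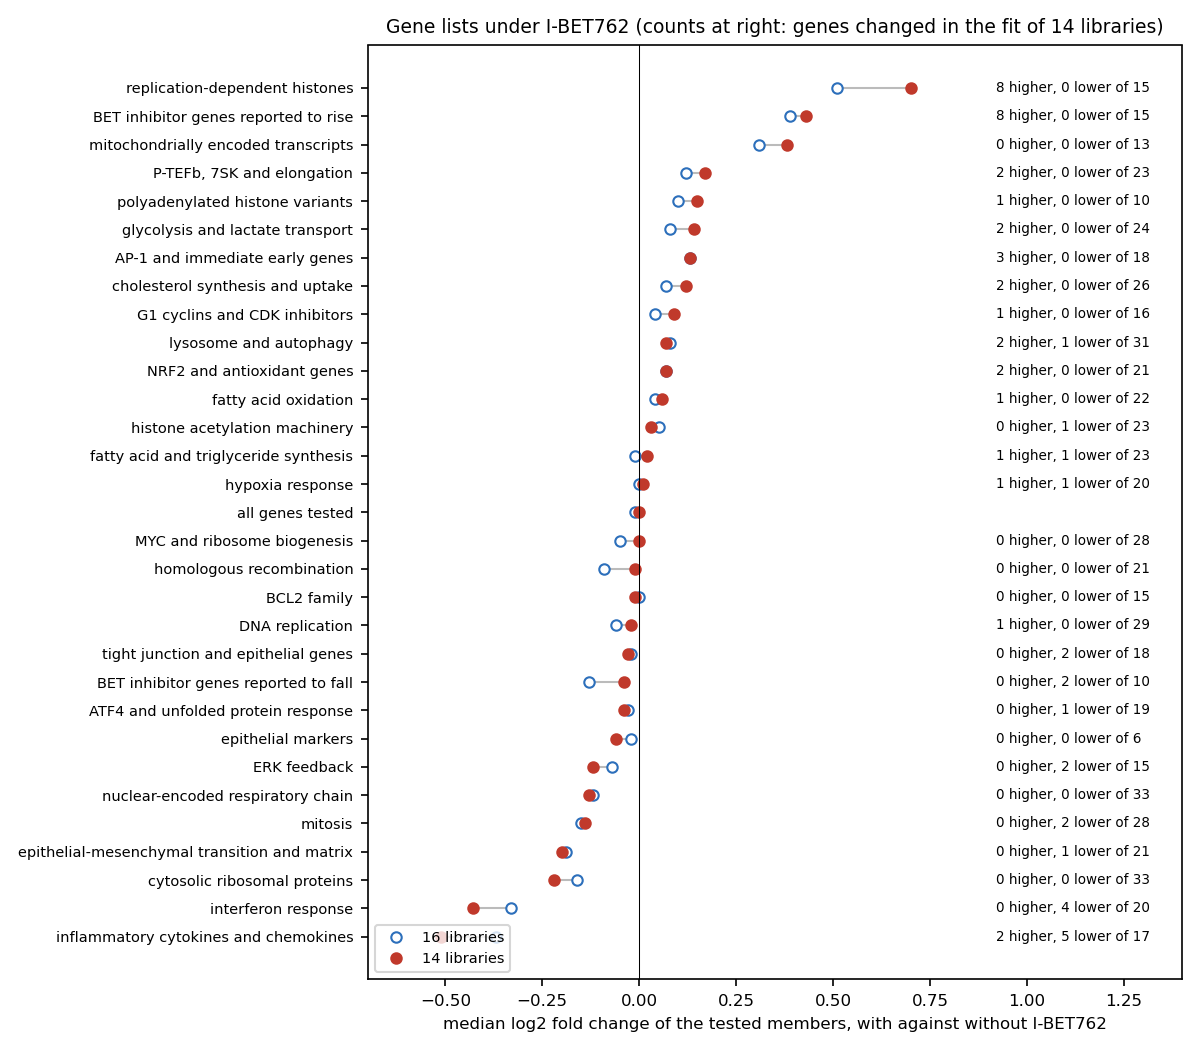
Median log2 fold change with I-BET762 (x axis) of the tested members of each gene list with at least 5 of them (y axis), from 16 libraries (open) and 14 (filled); text at the right counts members changed in 14, HEXIM1 included. Replication-dependent histones have the highest medians (0.51 and 0.70) and inflammatory cytokines and chemokines the lowest (-0.37 and -0.51).

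The epithelial identity of the line was checked on its markers. All 6 epithelial markers passed the filter, with means from 90.3 CPM for EPCAM to 1066 CPM for KRT8, and none changed with the inhibitor. Of the markers of other cells, 2 of 7 luminal prostate, 1 of 7 fibroblast, 2 of 6 leukocyte and 1 of 3 endothelial genes passed the filter, and 0 of them changed in either edgeR fit. The fibroblast marker was COL1A1 at a mean of 5.46 CPM, and the leukocyte markers were CD14 and CD68 at 1.36 and 0.653 CPM. KLK3, for prostate-specific antigen, did not pass the filter.

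The inhibitor's effect was also compared between lactate levels, which share no library. The interaction of I-BET762 and lactate gave 0 of 14690 genes (0%) by edgeR's test, with 894 at an unadjusted p under 0.05 and a lowest adjusted p of 0.7, and DESeq2 and limma-voom also gave 0. In a fit of all 4 groups, 65 genes (0.442%) changed with the inhibitor without lactate and 0 (0%, 2294 unadjusted) with it, and 10 (0.0671%) changed without lactate in 14 libraries. Fitted apart, 397 genes (2.7%) changed without lactate, 716 (4.87%) without lactate and the 2 libraries, and 2 (0.0136%) with lactate. These counts do not show that the effects differ, which the interaction tests. Fitted apart, the differences at the 2 lactate levels had a Spearman's rho of 0.30 across the 10672 genes at 5 CPM or more, and 0.50 without the libraries labelled control 2 and I-BET762 2. Genes are not independent replicates, and the rho is a description. Of genes with an absolute log2 fold change over 1 without lactate and at least 5 CPM, 88 of 106 (83.0%) had the same sign with lactate, and 169 of 188 (89.9%) did without the 2 libraries. Over all tested genes the shares were 58.4% and 66.4%. Within 3 bands of GC content rho was 0.26 to 0.41 as labelled and 0.51 to 0.56 without the 2 libraries.

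ISG15, for an interferon-induced ubiquitin-like protein, was among the 3 genes of smallest interaction p at 5 CPM or more. It differed by 1.09 without lactate and by -0.93 with it, with an interaction adjusted p of 0.7 that does not pass. In 14 libraries its difference without lactate was 0.73.

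**Figure D5:**
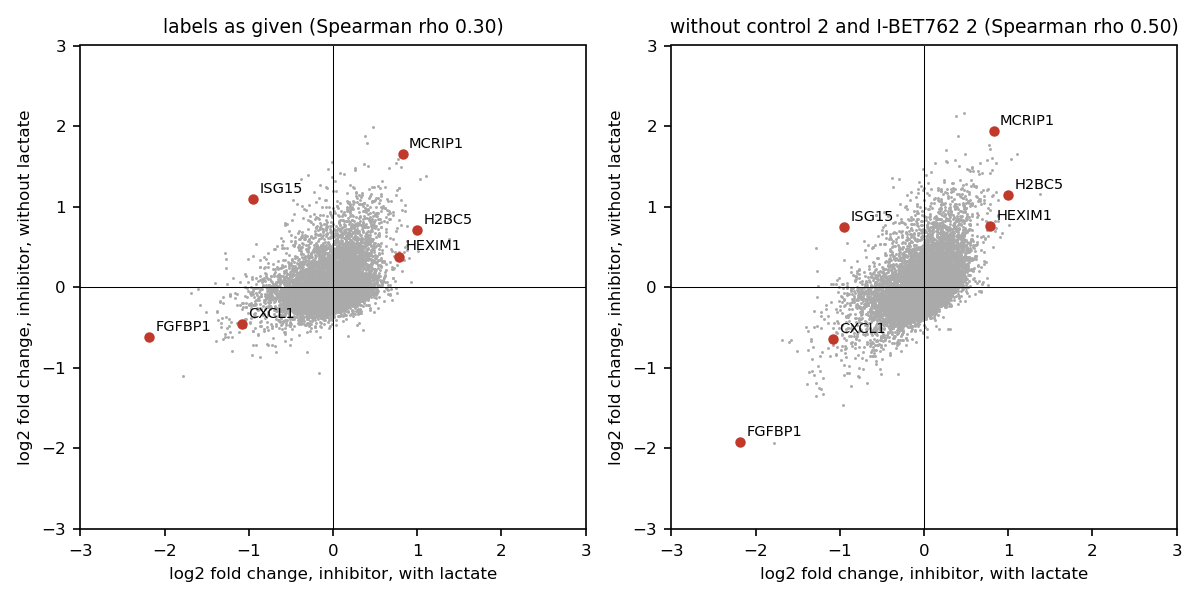
Log2 fold change with I-BET762 in cells with lactate (x axis) and without it (y axis), each fitted on its own libraries, for the 10672 genes at 5 CPM or more (grey) with named genes in red; labels as given on the left, without control 2 and I-BET762 2 on the right. Spearman's rho is 0.30 on the left and 0.50 on the right, where FGFBP1 and H2BC5 lie closer to equal change at both levels. For FGFBP1 this partly follows from its choice as a gene called only without the 2 libraries.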

How the data were processed

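The 16 libraries were single-end RNA sequencing of polyadenylated RNA. The values deposited by the authors are raw counts per Ensembl gene. The submitters' processing notes name STAR 2.6.1c, DESeq, GRCh38.p12 and hg38. How reads were assigned to genes, and whether by strand, is not given in the sources used here. Gene names, exon length and GC content came from GENCODE 29 (GRCh38). Groups followed the sample titles.

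Genes were kept by edgeR's filterByExpr (minimum count 10, minimum total 15), which left 14690 of 64792 identifiers. Counts were scaled by TMM and fitted with edgeR 4.0.16 (R 4.3.3) by the quasi-likelihood test on inhibitor and lactate, and p-values were adjusted over all tested genes by Benjamini-Hochberg (threshold 0.05). The biological coefficient of variation was 0.186 and residual degrees of freedom were 13 (0.185 and 11 for 14 libraries). The counts per library, 10711859 to 17173584, limit precision for genes of few counts. The interaction of inhibitor and lactate was fitted separately. Alternatives used DESeq2 1.42.0 and limma 3.58.1, other scalings and filters, offsets for GC content and exon length (splines with 5 degrees of freedom), the replicate number as a block, and fewer libraries. P-values measure the spread between cultures called independent in the labels.

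The comparison, its gene lists and the named genes were chosen with earlier results of these data known. Named genes were 8 preset genes (HEXIM1, SERPINI1, MYC, FOSL1, BRD3, CDK9, CCNT1 and CDKN1A), the 10 largest rises and falls among those called that averaged 5 CPM or more with one sign at both lactate levels, 5 of each called only without the libraries labelled control 2 and I-BET762 2, up to 3 members of lowest p per list described, and the 3 of lowest interaction p. Other list members called in 14 libraries, members with the opposite sign, H2BC8, H4C3, H1-2, IRF1, NFKBIA, and marker genes were named after their values were seen. Some named genes are not reported here. Of 704 list entries 701 matched an identifier.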

Additional observations from a re-analysis of the deposited data

Results flagged for a closer look

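In 100 named genes, each of the 4 groups was searched for a library standing apart from the other 3 by Dixon's criterion (gap to the nearest library over the group's range). Of 400 groups 32 held such a value, and chance flags about 1 in 20 groups. That rate does not hold for control 2 and I-BET762 2, because some of these genes were chosen for being called only without them. Levels are in CPM.

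The library labelled control 2 stood above the other 3 of its group for HEXIM1 at 135 against 70 to 77.4 and H2BC6 at 8.65 against 3.97 to 4.66. The library labelled control 2 stood below the other 3 of its group for TFPI2 at 23.7 against 43.2 to 46.8, PLAAT4 at 3.41 against 8.33 to 9.15 and CTSL at 202 against 336 to 348. The library labelled I-BET762 2 stood above the other 3 of its group for SYCP2 at 9.9 against 5.29 to 5.46, FGFBP1 at 37.5 against 5.52 to 8.92 and ADGRG1 at 18.2 against 5.19 to 7.13. The library labelled I-BET762 2 stood above the other 3 of its group for CXCL8 at 222 against 99.2 to 120, TNC at 167 against 79 to 88 and CTSL at 359 against 197 to 211. The library labelled I-BET762 2 stood above the other 3 of its group for PHLDA1 at 650 against 440 to 460. The library labelled I-BET762 2 stood below the other 3 of its group for H2BC6 at 3.96 against 9.2 to 9.8 and H2BC5 at 15.3 against 36 to 39.7. These were 14 of the 32 values.

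I-BET762 1 stood above the other 3 of its group for CEP131 at 22.8 against 11.1 to 12.4, H2AX at 60.8 against 34.6 to 37.7 and ACADVL at 539 against 443 to 458. I-BET762 1 stood above the other 3 of its group for SIRT7 at 39 against 31.7 to 32.9. Control 1 stood above the other 3 of its group for CXCL8 at 252 against 141 to 157. Control 3 stood below the other 3 of its group for NUBP2 at 6.37 against 16 to 17.7, NELFA at 19.8 against 31.9 to 33.3 and GAA at 21.4 against 37 to 39.8. Lactate 1 stood above the other 3 of its group for SYCP2 at 17.2 against 10.2 to 10.5, H2AX at 46.9 against 26.2 to 26.5 and TOP2A at 841 against 538 to 585. Lactate 1 stood above the other 3 of its group for HSP90B1 at 2400 against 1130 to 1330. Lactate 1 stood below the other 3 of its group for OAS2 at 0.813 against 1.79 to 1.92 and TGFB1 at 55.6 against 95.2 to 101. Lactate 2 stood above the other 3 of its group for HDAC9 at 9 against 5.21 to 5.8. Lactate and I-BET762 1 stood below the other 3 of its group for H2AC11 at 9.35 against 13.7 to 14.5. Lactate and I-BET762 3 stood below the other 3 of its group for IDUA at 5.16 against 9.84 to 10.7 and H2BC4 at 14.2 against 17.5 to 18. The cause of these values was not tested.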

How the results depend on the processing

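The 123 genes changed with I-BET762 in 16 libraries became 14 with total counts alone as scaling (9 higher, 5 lower), 615 with no filter on low counts, 17 at a mean of at least 5 CPM, 879 by DESeq2, 40 with offsets for GC content and exon length, 0 with the GC offset alone (2401 at an unadjusted p under 0.05), 288 as the mean of the effects at the 2 lactate levels, 78 with robust moderation and 0 with lactate left out of the model (1952 unadjusted). RLE size factors and limma-voom gave 151 and 177. Without the libraries labelled control 2 and I-BET762 2 the count was 943, and without lactate 1 and 4, whose levels followed exon length (Spearman's rho -0.40 and -0.42 across genes, against -0.13 to 0.27 in the other libraries), it was 1108. Leaving out 1 library gave 0 to 705. The cause of these changes was not tested, apart from the fewer genes or samples in some settings.

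Whether the replicate numbers pair the libraries was not tested. Deviations from the group means correlated by -0.26 to 0.42 in 24 same-numbered pairs, with 16 pairs over 0.1. For 7 of 16 libraries the best correlate in another group had their number. With the number as a replicate block 35 genes changed (17 higher, 18 lower), and with block and GC offset 0 did (2706 unadjusted).

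The interaction count was 0 in each setting refitted for it except without the filter, where it was 3; it was not refitted with the mean of the effects, lactate left out or robust moderation. The following were chosen after seeing the data. Without all 4 libraries named above 2293 genes changed. In 14 libraries the 943 genes became 1763 by DESeq2, 280 with lactate left out, 1490 with block and GC offset and 368 to 1687 on leaving out 1 library; the other settings gave 698 to 1395.

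The 31 named genes called in 16 libraries gave 991 values, 1 per gene and setting, with 469 past the threshold and 522 not. All kept their direction, which is a description, because the genes were chosen as called and the settings share most libraries. Among the 69 not called, 4 genes changed sign, in 15 of 2206 such values. ISG15 was at -0.23 with the GC offset, -0.12 with GC and length offsets, -0.17 with block and GC offset, -0.30 with lactate left out and -0.25 without the libraries labelled control 2 and I-BET762 2. Leaving out 1 library took ISG15 to between -0.13 and 0.25 and FOSL1 to between -0.18 and 0.00. CCNT1 was at -0.04 without lactate 1 and 4 and at -0.01 without all 4 libraries, where HSP90B1 was at 0.01.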
